A study of Mus musculus with 27 samples.

Results

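Macrophages sorted from the dura mater, the outer membrane around the brain, were compared between Rag1 ko mice that had received IL6Ra ko/IL21R ko T cells and Rag1 ko mice that had received none. The comparison holds 13 of the 27 RNA-seq libraries of the deposited count table, chosen by the names of its columns. The IL6Ra/IL21R ko T group has 7 libraries (3 female, 4 male), from B6 Rag1 ko mice aged 16 to 19 weeks. They are labelled as 6.5 weeks after transfer of IL6Ra ko/IL21R ko T cells, which lack the receptors for IL-6 and IL-21. Sample titles of this group name Th17 instead, and its columns begin with th17, nth17 or Noth17. The identity of the transferred cells therefore rests on the treatment label. The no T group has 6 libraries (4 female, 2 male), from B6 Rag1 ko mice of the same age range that are labelled as at steady state, with no transfer named. Both groups therefore share the loss of Rag1, which leaves a mouse without T or B cells of its own. The other 14 libraries came from Rag1 ko mice given total B6 T cells (5 libraries) or T cells without T-bet, IFN-gamma, IL-17A/F or IL-22, and they enter here through the shared estimate of the spread. The labels give neither the number of T cells transferred nor how many were present at collection, and the sources used here do not name the markers of the macrophage sort. They also do not say that the libraries of a group came from separate mice, so the spread behind each p-value is that of these libraries and may in part be technical.

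IL-6, acting with TGF-beta, turns naive CD4 T cells into IL-17-producing T helper (Th17) cells, and IL-21 sustains that program and also acts on follicular helper T cells and B cells. Dural macrophages belong to the border macrophages of the brain, many of which carry the mannose receptor (Mrc1) and the hyaluronan receptor Lyve1, and they lie close to vessels that have no tight barrier. T cells act on such macrophages in part through cytokines: IFN-gamma induces guanylate-binding proteins, the chemokines Cxcl9 and Cxcl10, PD-L1 (Cd274) and antigen presentation genes.

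The 13 libraries held from 7353139 to 17066408 counts, with 10367421 to 16471442 in the IL6Ra/IL21R ko T group and 7353139 to 17066408 in the no T group. All 11 defining macrophage markers were present in all 13 libraries, from Mertk at 71.6 to 173 CPM (a library's counts scaled to a common total with TMM factors) to Lyz2 at 7657 to 11773 CPM. T-cell transcripts were at or near 0: Cd3e reached at most 11 counts in the IL6Ra/IL21R ko T group and 3 in the no T group, Trac at most 4 in the IL6Ra/IL21R ko T group and 0 in the no T group, and Trbc2 had none in either. Cd4, which macrophages can also express, was present in all 13. By the treatment label, donor T cells and not the macrophages carried the receptor knockouts, so the macrophage counts cannot check them. Il6ra, the IL-6 receptor chain, had 124, 148 and 162 CPM in the lowest, median and highest IL6Ra/IL21R ko T library and 144, 155 and 186 CPM in those of the no T group, and the ranges overlapped.

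The libraries differ in their ribosomal protein transcripts, by which the window below is set. The summed CPM of genes whose symbols begin with Rpl or Rps and a digit was 12706 ± 2384 in the 7 IL6Ra/IL21R ko T libraries and 24028 ± 8379 in the 6 no T libraries (mean ± SD). As the window uses this sum, it is given as a description with no test. A window of 10000 to 20000 summed CPM held 6 IL6Ra/IL21R ko T libraries (11757 to 15229) and 2 no T libraries, the females F3 and F4 (13272 and 13493). The other 4 no T libraries lay above it, at 27575 to 31463, and 1 IL6Ra/IL21R ko T library, the male M4, lay below it at 7914. Over all 27 libraries, the values nearest to the edges were 9199 below, 11757 and 16228 inside, and 27575 above. The 2 no T libraries inside the window also had the lowest totals of the 13, at 8454218 and 7353139 counts. Results are therefore given for all 13 libraries. For the counts of calls and for some genes and lists, those of the 8 libraries inside the window are given as well. The no T library F2, a female, held 5.28 CPM of the Y-linked Ddx3y, where the other 6 female libraries had at most 0.609 and the 6 male ones 80.8 to 116. No IL6Ra/IL21R ko T library lay above the window, so for the 4 no T libraries there the group and the ribosomal level cannot be told apart.

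**Figure D1:**
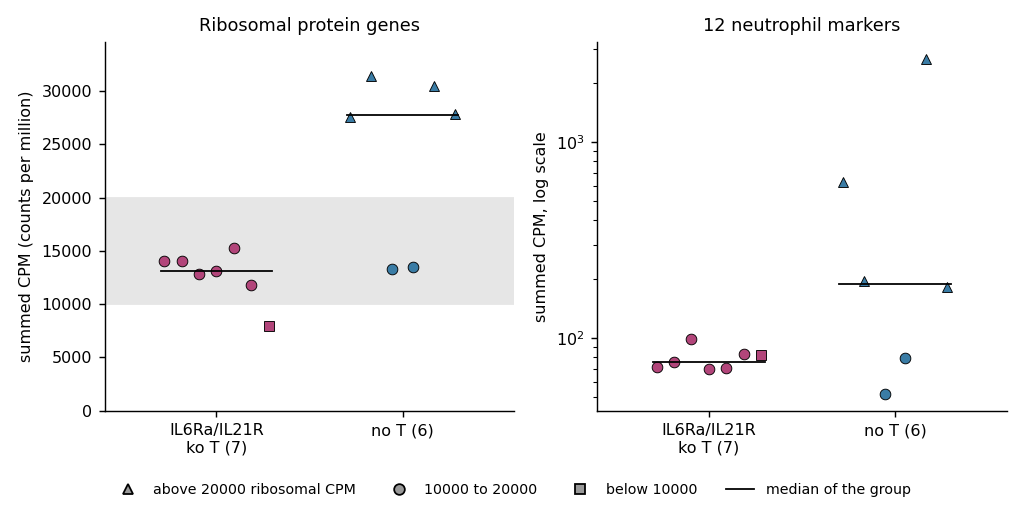
Left, summed CPM of ribosomal protein genes in each library of the IL6Ra/IL21R ko T and no T groups, with the window from 10000 to 20000 shaded. Right, summed CPM of the whole list of 12 neutrophil markers on a log scale; the 7 IL6Ra/IL21R ko T libraries hold 70.0 to 99.2 CPM, the 4 no T libraries above the window 182 to 2664 CPM and the 2 inside it 52.1 and 79.8 CPM.

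Few genes separated the groups. Of 12661 genes tested, 146 were called (1.15%) at an adjusted p under 0.05 in edgeR's quasi-likelihood test with Benjamini-Hochberg adjustment. Of these, 15 were higher (0.118%) and 131 lower (1.03%) in the IL6Ra/IL21R ko T group, and the median log2 fold change over all genes was 0.02. At an unadjusted p under 0.05 in the same test were 1364 of the 12661 genes, 581 higher and 783 lower. The unadjusted counts of the lists below stand beside that share. Macrophages of mice given total T cells, set against the same no T libraries, had 2665 genes called (21.0%), and IL6Ra/IL21R ko T against total T had 3567 (28.2%). These 3 comparisons share libraries, so their counts are not independent. The total T libraries F1, F2 and M1 lay above the ribosomal window, at 33623, 32665 and 30314 CPM, and F3 and F4 of that group inside it. No IL6Ra/IL21R ko T library lay above it. Between IL6Ra/IL21R ko T and those total T libraries, the group and the ribosomal level therefore cannot be told apart. Genes whose CPM did not overlap between the 7 and the 6 libraries numbered 57 (0.450%), with 26 higher and 31 lower, and 53 of them were not ribosomal protein genes. Leaving out the no T library M1 lowered the calls to 72 and leaving out the no T library F2 to 92.

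Inside the window, 6 against 2 libraries, 43 genes were called (0.340%), 6 higher (0.0474%) and 37 lower (0.292%). Only 3 genes were called both there and over all 13 libraries, namely Txnrd1, Tcof1 and Kdm6b, all lower. Single libraries weigh heavily in this small fit: the calls numbered 0 without the IL6Ra/IL21R ko T library F2 (1194 at an unadjusted p under 0.05), 3 without F1, 67 without F3 and 160 without M2 of that group, and 13 and 1 without the no T libraries F3 and F4. The last 2 of these fits hold 1 no T library, taken to vary like the other group. All 43 genes kept their sign in each of these fits, which reuse most of the libraries by which the genes were called. Of the 146 genes called over all libraries, 101 had the same sign inside the window. With the ribosomal set as a term in the model 9 genes were called (0.0711%), all lower, and 1415 had an unadjusted p under 0.05. These 9 shared 0 genes with the 146. Without the library M4, 302 genes were called (2.39%), 142 of them shared with the 146. M4 stood apart from the other 6 libraries of its group in other transcripts too: its fibroblast markers summed to 4553 CPM against 526 to 1572, its endothelial markers to 274 against 48.5 to 82.6, and its mitochondrial transcripts to 13016 against 27821 to 34723. Its column name, and that of M2 of the same group, may mark a pool of mice, which the labels do not say.

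The genes that were higher in the IL6Ra/IL21R ko T group changed by modest amounts. A rule that asked for a call over all libraries, the same sign inside the window and without M4, an unadjusted p under 0.05 inside the window and at least 5 CPM in 1 group left 27 genes, 12 higher and 15 lower, of which the 12 strongest in each direction are described here. The 12 higher ones ran from Wdpcp at 1.13 to Tmem30a at 0.36 on the log2 scale.

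Dpy19l4, a member of the DPY19 family of membrane C-mannosyltransferase-like proteins (chr4:11261315-11322137 on GRCm38, as are the positions below), had 44.1, 51.8 and 64.8 CPM in the lowest, median and highest IL6Ra/IL21R ko T library and 30.5, 33.8 and 37.3 CPM in those of the no T group. Every library of the IL6Ra/IL21R ko T group was above every no T library. Its log2 fold change was 0.66 ± 0.10 (adjusted p = 0.00307), and 0.77 ± 0.17 inside the window (adjusted p = 0.0878). Against total T cells it was 0.69 (adjusted p = 7.24e-05), and total T against no T gave -0.03 (adjusted p = 0.876).

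Tmem30a, the subunit that lipid flippases need to reach the membrane (chr9:79768943-79793507), had 151, 179 and 188 CPM in the IL6Ra/IL21R ko T group and 130.4, 137 and 143 CPM in the no T group, again as lowest, median and highest. The groups did not overlap, although the lowest library of the first group, M4, lay close to the highest no T library. The difference was 0.36 ± 0.07 on the log2 scale (adjusted p = 0.0058), and total T cells against no T gave 0.26 (adjusted p = 0.0132). Arrdc3, an alpha-arrestin that directs the turnover of surface receptors (chr13:80883384-80896042), had 84.1, 130.0 and 140.1 CPM against 73.5, 82.4 and 97.5 CPM. Here the male library M2 of the IL6Ra/IL21R ko T group lay among the no T libraries and the other 6 lay above them all. The log2 fold change of Arrdc3 was 0.57 ± 0.11 (adjusted p = 0.00616), with -0.15 for total T against no T (adjusted p = 0.402). These 3 genes kept their call in all 13 fits that left out 1 library.

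Receptors and membrane proteins were among the others. S1pr2, a receptor for sphingosine-1-phosphate that restrains cell migration, had 59.1, 81.4 and 95.7 CPM in the IL6Ra/IL21R ko T group against 46.2, 53.1 and 66.4 CPM in the no T group, and the ranges overlapped, since its M2 library lay below 2 no T libraries. The log2 difference was 0.54 ± 0.12 (adjusted p = 0.0211), and 4 of the 13 fits that left out a library lost the call. Cd151, a tetraspanin that partners laminin-binding integrins, had 62.8, 70.7 and 92.01 CPM against 46.6, 53.6 and 56.6 CPM without overlap, a log2 fold change of 0.46 ± 0.10 (adjusted p = 0.0145), which was lost in 1 of the 13 fits, without the no T library M2 (highest adjusted p = 0.0603). For Cd151, total T cells gave a change of the opposite sign against the same no T libraries, -0.52 (adjusted p = 0.00131). Slc16a9, a transporter of the monocarboxylate family, had 7.58, 9.60 and 16.7 CPM against 2.51, 5.99 and 8.99 CPM, with overlap, and 1.13 ± 0.25 on the log2 scale (adjusted p = 0.016, lost in 3 of the 13 fits); it too was lower with total T cells than with no T cells (-0.91, adjusted p = 0.016).

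The other 6 rule genes that were higher have varied roles. Ubxn8, an adaptor of the p97 segregase at the endoplasmic reticulum, had 20.6, 25.2 and 27.5 CPM against 11.8, 17.1 and 17.7 CPM with no overlap (0.57 ± 0.14, adjusted p = 0.0451). Ltn1, the ubiquitin ligase that marks nascent chains on stalled ribosomes, had 36.1, 39.3 and 41.3 CPM against 22.1, 30.7 and 32.8 CPM with no overlap (0.42 ± 0.10, adjusted p = 0.0235). Usp22, a histone deubiquitinase, Elp2, a subunit of the Elongator complex, Magee1 and Wdpcp, a planar polarity protein of the cilium, had log2 fold changes of 0.43, 0.45, 1.02 and 1.13. Without 1 library, calls were lost in 10 of the 13 fits for Ubxn8 (adjusted p up to 0.126), 6 for Ltn1 (up to 0.115), 2 for Usp22, 10 for Elp2, 4 for Magee1 and 11 for Wdpcp. The 3 called genes outside the rule were Lamp2, a lysosomal membrane protein (0.27 ± 0.07, adjusted p = 0.048), Aar2 (0.47 ± 0.11, adjusted p = 0.034) and Lpar6, a receptor for lysophosphatidic acid (0.71 ± 0.17, adjusted p = 0.0365), with calls lost in 11, 7 and 8 of those fits for Lamp2, Aar2 and Lpar6.

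**Figure D2:**
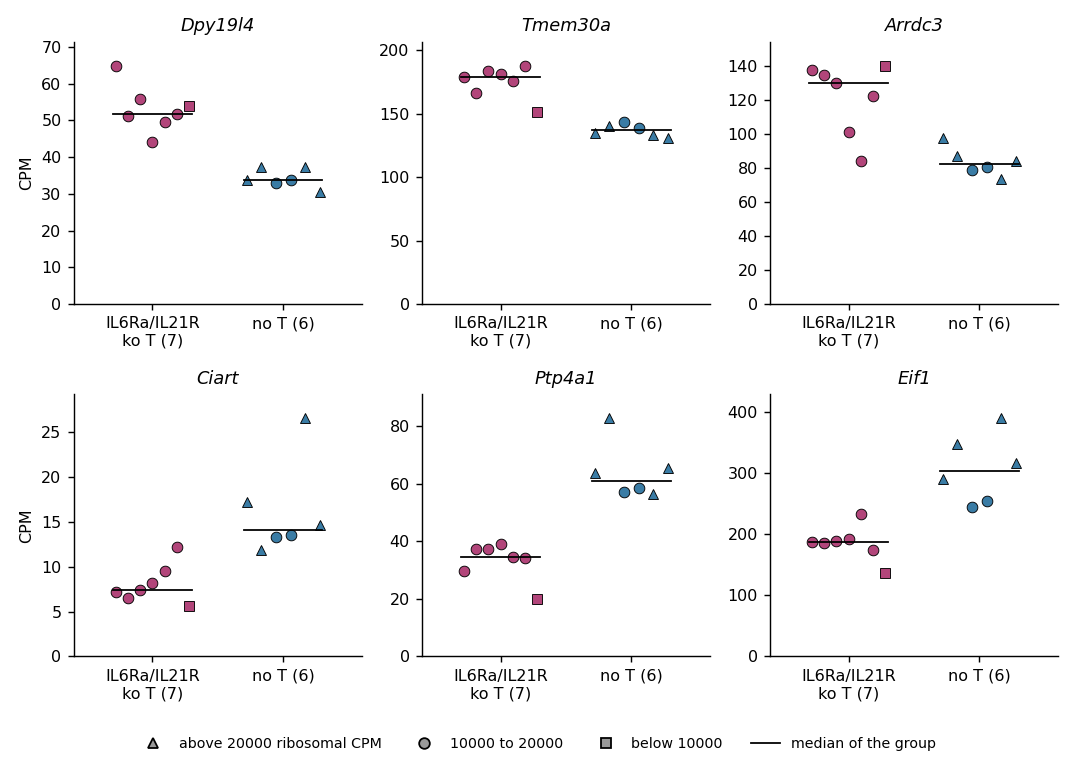
CPM of 6 genes in each library of the IL6Ra/IL21R ko T group (7 libraries, left) and the no T group (6 libraries, right), with the symbol showing where a library lies relative to the ribosomal window and a line at each group's median. Dpy19l4, Tmem30a and Arrdc3 are higher and Ciart, Ptp4a1 and Eif1 lower in the IL6Ra/IL21R ko T group, and the 2 no T libraries inside the window lie outside the range of the IL6Ra/IL21R ko T libraries in all 6 panels. The rule that named these genes asked for the same sign and an unadjusted p under 0.05 inside the window. The place of those 2 libraries was therefore largely fixed by the selection and is no further support.

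Lower in the IL6Ra/IL21R ko T group was Ciart, a transcriptional repressor of the circadian clock that acts on the CLOCK and BMAL1 pair (chr3:95878503-95882251). It had 5.56, 7.40 and 12.2 CPM in the lowest, median and highest IL6Ra/IL21R ko T library and 11.9, 14.1 and 26.6 CPM in those of the no T group. The ranges touched, since the male library M3 lay just above the lowest no T library and the other 6 lay below all no T libraries. Its log2 fold change was -1.07 ± 0.19 (adjusted p = 0.00307), -0.94 ± 0.30 inside the window (adjusted p = 0.254), and total T against no T gave 0.08 (adjusted p = 0.835). The 250 bases before its start are shown because they carry the element through which the clock acts, the E-box CACGTG, in capitals. It is palindromic and was searched on both strands.
Ciart: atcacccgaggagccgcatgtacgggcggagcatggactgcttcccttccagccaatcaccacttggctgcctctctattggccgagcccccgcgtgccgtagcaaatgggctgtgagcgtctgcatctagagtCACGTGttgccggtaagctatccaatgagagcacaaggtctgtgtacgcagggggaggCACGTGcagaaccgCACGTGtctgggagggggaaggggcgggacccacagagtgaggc
It is the minus strand of chr3:95882229-95882478, from RefSeq's GRCm38.p6 table. It holds 3 matches, from 116 to 44 bases before the start, where 6.02% of 32851 promoters held at least 1 and 0.0609% held 3 or more. The match is a description of the sequence only.

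Of 16 other clock genes, looked up after Ciart had been seen, none was called by edgeR's quasi-likelihood test and none by DESeq2, with 2 at an unadjusted p under 0.05 in edgeR and a median log2 fold change of -0.15. Arntl, which encodes BMAL1, had 0.35 (adjusted p = 0.405), Per1 had -0.24 (adjusted p = 0.514), and Nr1d1, the repressor REV-ERB alpha, had 0.25 (adjusted p = 0.771). Bhlhe40, a clock repressor that also shapes cytokine output, had 17.8, 38.2 and 55.3 CPM in the IL6Ra/IL21R ko T group and 48.3, 75.96 and 109.9 CPM in the no T group, with a small overlap and -1.04 ± 0.31 on the log2 scale (adjusted p = 0.131). The labels do not give the hour at which tissue was taken, so time of day and group cannot be told apart.

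Ptp4a1, a phosphatase of the PRL family (chr1:30940302-30949309), had 20.01, 34.4 and 39.1 CPM in the IL6Ra/IL21R ko T group and 56.3, 61.1 and 82.9 CPM in the no T group. All 7 libraries lay below all 6. For Ptp4a1 the log2 fold change was -0.96 ± 0.18 (adjusted p = 0.0058), and with total T cells it was higher than with none (0.70, adjusted p = 0.0123). Eif1, which helps the ribosome choose its start codon (chr11:100319885-100322096), had 136, 188 and 232 CPM against 244, 303 and 389.6 CPM, also without overlap, and -0.75 ± 0.12 on the log2 scale (adjusted p = 0.00307). Within the no T group Eif1 was lowest in F3 and F4, the libraries inside the window, and there the difference was -0.42 ± 0.13 (adjusted p = 0.258). Ciart, Ptp4a1 and Eif1 kept their call in every fit without 1 library. Ngp, also named by the rule, is described with the neutrophil genes.

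Chromatin and nucleolar regulators were among the others. Kdm6b, the histone H3K27 demethylase JMJD3 that inflammatory signals induce in macrophages, had 187, 296 and 474 CPM in the IL6Ra/IL21R ko T group and 416, 518 and 686 CPM in the no T group. M2 and M4 reached the no T range and the other 5 libraries lay below it. Kdm6b had a log2 fold change of -0.77 ± 0.19 (adjusted p = 0.0375) and -1.36 ± 0.23 inside the window (adjusted p = 0.0322). Tcof1, the nucleolar protein treacle, which drives ribosomal RNA synthesis, had 33.9, 41.9 and 75.9 CPM against 73.8, 82.6 and 86.7 CPM, where M4 alone reached the no T range. For Tcof1 it was -0.74 ± 0.18 on the log2 scale (adjusted p = 0.0361) and -1.15 ± 0.18 inside the window (adjusted p = 0.0256). Over all libraries, Kdm6b lost its call in 9 and Tcof1 in 10 of the 13 fits without 1 library.

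Txnrd1, the cytosolic thioredoxin reductase and the third gene called in both fits, had 69.9, 91.8 and 107 CPM in the IL6Ra/IL21R ko T group and 100.3, 142 and 171 CPM in the no T group, with overlap (-0.62 ± 0.14, adjusted p = 0.0197, lost in 3 of the 13 fits). Tle3, a Groucho corepressor, Atad2, a bromodomain ATPase, and Usp37, a deubiquitinase of the cell cycle, had log2 fold changes of -0.67, -0.67 and -0.68. Stk38l, a kinase of the Hippo pathway, had -0.64, Gpc1, a heparan sulfate proteoglycan, -0.94, and Atp2a3, the calcium pump SERCA3 of blood cells, -1.49. Calls were lost in 7, 2, 1, 9 and 7 of the 13 fits without 1 library for Tle3, Atad2, Usp37, Stk38l and Gpc1. Atp2a3 was highest in the no T library M1, at 73.7 CPM, and lost its call in 3 of the 13 fits.

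Ribosomal protein genes made up 49 of the 131 lower calls. Of 97 tested, 49 were called lower and none higher, the median being -1.11 on the log2 scale, against 1.15% called among all genes. Inside the window edgeR called none of the 97 (2 at an unadjusted p under 0.05, none called by DESeq2) and their median was 0.04, where the window itself was set on the sum of these genes. Rps6 shows the form it took: its lowest, median and highest libraries had 0.458, 1.06 and 2.42 CPM in the IL6Ra/IL21R ko T group and 0.537, 270.0 and 321 CPM in the no T group. In the no T group the lowest was F4, at 0.537 CPM, and F3 had 0.924 CPM. Other abundant transcripts split the same way. Gapdh, a glycolytic enzyme, had 22.6 to 38.6 CPM in the IL6Ra/IL21R ko T group, 29.5 and 27.8 CPM in the no T libraries F3 and F4, and 232 to 328 CPM in the other 4. Ppia, Actg1, Fau and Ftl1, the ferritin light chain, were called lower as well, at -2.38, -5.21, -5.08 and -1.51, and had 0.09, -0.55, -0.24 and -0.07 inside the window. Many of these genes have processed pseudogenes of near-identical sequence, and it is not stated how multi-mapping reads were counted, so their levels are uncertain.

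Among the 13 libraries, neutrophil granule transcripts lay almost wholly in 4 no T libraries. High levels were not particular to the no T group. Over the 9 markers tested, the median log2 fold change of total T against no T was -0.68. Most of these markers passed the filter on low values through libraries where they are high, so this median is a description only. The total T libraries F1, F2 and M1 lay above the ribosomal window, as did those 4 no T libraries. The 12 neutrophil markers summed to 70.0 to 99.2 CPM in the 7 IL6Ra/IL21R ko T libraries. In the no T group they summed to 2664 CPM in M1, 624 in F1, 196 in F2 and 182 in M2, all above the window, and to 52.1 and 79.8 CPM in F3 and F4 inside it. Most of the sum outside those 4 libraries was Csf3r, the G-CSF receptor, which mature neutrophils and monocytes share; it had 66.6, 73.6 and 98.9 CPM in the IL6Ra/IL21R ko T group against 51.8, 75.8 and 86.1 CPM in the no T group, with overlap, and 0.04 ± 0.17 on the log2 scale (adjusted p = 0.958). Of the other 11, the filter on low values kept 8, whose counts among these 13 libraries lay mainly in the no T group. For this reason no count or median over them is given for this comparison. Adjusted p-values of single members below describe these libraries and are no further support. Ly6g, Cxcr2 and Retnlg, markers of mature neutrophils, had 0, 9 and 9 counts over the IL6Ra/IL21R ko T group and 7, 26 and 30 over the no T group and were not tested. Inside the window no member was called by edgeR or DESeq2 (3 of the 9 tested at an unadjusted p under 0.05 in each), and with the ribosomal set as a term edgeR called none, with 7 at an unadjusted p under 0.05.

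Ngp, a granule protein of immature neutrophils and the 1 rule gene of this kind, had 0, 0 and 0.847 CPM in the lowest, median and highest IL6Ra/IL21R ko T library and 0.347, 19.4 and 481 CPM in those of the no T group. In the no T group it stood at 481 CPM in M1, 79.2 in F1, 20.04 in F2 and 18.7 in M2, and at 0.347 and 1.34 in F3 and F4. Its log2 fold change was -8.88 ± 1.35 (adjusted p = 0.00307), and -6.78 without M1 (adjusted p = 0.0114). S100a8 and S100a9, the subunits of calprotectin, and Camp, the antimicrobial cathelicidin, followed the same libraries, with up to 0.957, 1.31 and 0.308 CPM in the IL6Ra/IL21R ko T group and up to 353, 469.8 and 196 CPM in the no T library M1.

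Elane, neutrophil elastase, had no count in any IL6Ra/IL21R ko T library. The no T group held 5139 counts of it, 3669 of them in M1 and none in F3 and F4. It was at least 2010-fold lower, computed against 3 counts over the IL6Ra/IL21R ko T group, and at least 682-fold lower without M1. Fcnb, a ficolin of neutrophil precursors, was at least 598-fold lower by the same floor and at least 224-fold without M1, and Ms4a3, a marker of granulocyte and monocyte progenitors, at least 221-fold and, without M1, at least 96.9-fold. M1 held 1047 of the 1531 Fcnb and 357 of the 566 Ms4a3 counts of the no T group. Without M1 the calls of Ms4a3 (adjusted p = 0.079), Ltf, lactoferrin (adjusted p = 0.161), and Lcn2, lipocalin 2 (adjusted p = 0.118), were lost. Without both F1 and M1, the no T libraries with the most of these transcripts, 33 genes were called in all in place of 146.

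Markers of 2 other blood cell types were in part high in the same libraries. Nkg7, a granule protein of natural killer and cytotoxic T cells, had 4 counts over the 7 IL6Ra/IL21R ko T libraries and 218 over the 6 no T libraries (adjusted p = 0.0293, and 0.18 without M1). Klrk1, the other natural killer marker tested, had a log2 fold change of 0.21 (adjusted p = 0.892), and all 9 markers summed to 3.01 to 19.5 CPM in the IL6Ra/IL21R ko T group and 6.12 to 21.6 CPM in the no T group. The 8 erythroid markers summed to 1.08 to 46.4 CPM in the IL6Ra/IL21R ko T group, against 428, 127.8 and 38.6 CPM in the no T libraries F1, M1 and F2 and 0.231 to 0.322 CPM in the other 3; none was called by edgeR (1 at an unadjusted p under 0.05) or DESeq2. The part of these cell types in other differences was not tested. In bulk samples, fewer cells of a type and less RNA per cell cannot be told apart.

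A second set of transcripts was found mainly in 3 no T libraries and was singled out after its values had been seen. These genes passed the filter on low values through those libraries, so they are described by their levels. Slc26a4, the anion transporter pendrin, had 0, 0 and 0.373 CPM as lowest, median and highest in the IL6Ra/IL21R ko T group, and 70.8, 69.00 and 22.6 CPM in the no T libraries F1, M1 and F2, with at most 1.07 in the other 3. Foxi1, the ionocyte transcription factor, had 2 counts over the IL6Ra/IL21R ko T group and 820 over the no T group, of which F1 held 486, M1 195 and F2 134. Insrr, a receptor related to that of insulin, had 5 counts against 481, Atp6v1c2, a subunit of the proton pump, 4 against 289, and Casr, the calcium-sensing receptor, 0 against 319. Casr was at least 125-fold lower by the floor above, and at least 59.1-fold without F1, which held 200 of its counts. All 5 had an adjusted p of 0.05 or more without the no T library M1, from 0.07 for Foxi1 to 0.418 for Atp6v1c2.

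Over all 13 libraries, genes of the IFN-gamma response did not separate the groups. None of 25 tested was called by edgeR's quasi-likelihood test (1.15% of all genes were), none had an unadjusted p under 0.05, DESeq2 called none, and their median log2 fold change was -0.05. For 20 of the 25 the 95% interval lay within 1 log2 unit of 0 on both sides. With total T cells, set against the same no T libraries, 20 of the 25 were called higher (11.7% of all genes were) with a median of 1.48. IL6Ra/IL21R ko T against total T had 22 of the 25 called lower (15.1% of all genes), with a median of -1.40.

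Gbp2, a guanylate-binding protein, shows the levels behind this: 65.6, 77.96 and 132 CPM as lowest, median and highest in the IL6Ra/IL21R ko T group and 54.5, 84.5 and 175 CPM in the no T group, with total T cells at 282, 466 and 1679.8 CPM. The first 2 ranges overlapped throughout and lay below the third. Its log2 fold change was -0.05 ± 0.33 (95% interval -0.74 to 0.63, adjusted p = 0.971), against 3.09 for total T over no T (adjusted p = 1.97e-05). Cd274 had 17.2, 29.3 and 46.9 CPM against 22.96, 29.7 and 55.1 CPM and -0.10 ± 0.35 on the log2 scale (adjusted p = 0.953). Fcgr4, an activating IgG receptor, had 0.07 ± 0.17 (adjusted p = 0.915). Nos2, the inducible nitric oxide synthase, was at or near 0 except in the no T library F2, where it had 7.64 CPM.

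Antigen presentation was similar in the spread of its genes. None of 11 MHC class II genes and none of 22 MHC class I and processing genes was called, where 1.15% of all genes were. Their medians were -0.04 and -0.05, with 0 and 2 genes at an unadjusted p under 0.05, and none called by DESeq2. Inside the window, also with no call, 11 of the 11 and 17 of the 22 were above 0, with medians of 0.24 and 0.09. Without M4 the class II median was 0.05. H2-DMa, which loads peptides onto class II, had 250.2, 722 and 859 CPM in the IL6Ra/IL21R ko T group and 619, 642 and 755 CPM in the no T group. The low end of the first range is M4, and the other 6 libraries spanned the no T range. The log2 difference of H2-DMa was -0.01 ± 0.17 (95% interval -0.36 to 0.34, adjusted p = 0.994). Tap1, the peptide transporter, had -0.04 ± 0.18 (adjusted p = 0.959), B2m, the class I light chain, 0.04 ± 0.11 (adjusted p = 0.927), and Cd74, the invariant chain, -0.14 ± 0.17 (adjusted p = 0.828). Total T over no T, by contrast, had 6 of the 11 and 20 of the 22 called higher, against 11.7% of all genes.

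**Figure D3:**
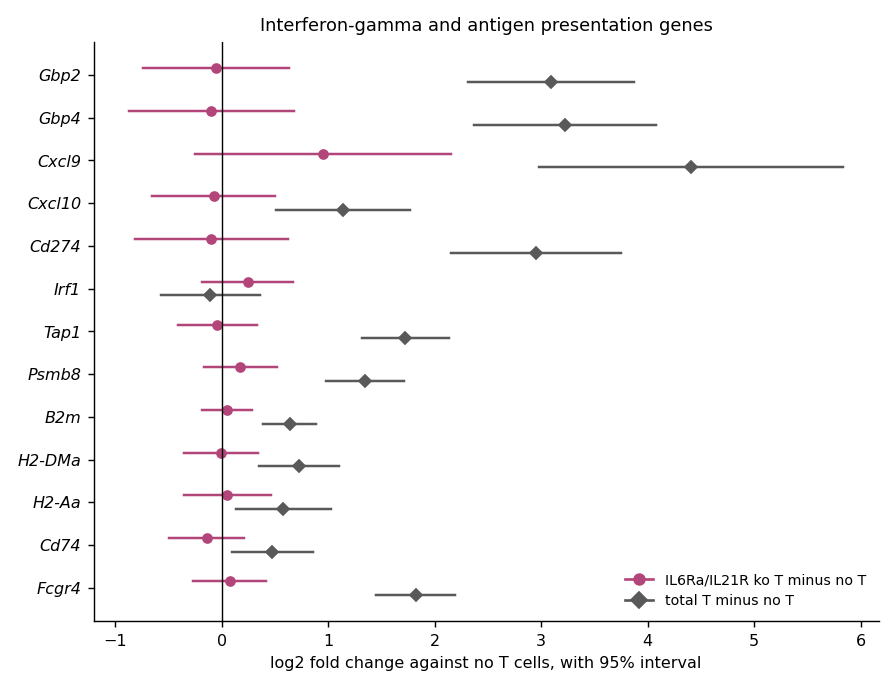
Log2 fold changes with 95% intervals of 13 genes of the IFN-gamma response, antigen presentation and Fc receptors, for IL6Ra/IL21R ko T minus no T (circles) and for total T minus no T (diamonds), which share the no T libraries. The circles lie between -0.14 and 0.95 with intervals that include 0, and the diamonds reach 4.41 for Cxcl9.

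Cxcl9, a chemokine that draws CXCR3-bearing T cells, was the member with the largest positive value. It had 54.7, 64.2 and 159 CPM as lowest, median and highest in the IL6Ra/IL21R ko T group and 17.2, 29.2 and 142 CPM in the no T group. All 7 libraries lay above 5 of the 6 no T libraries, and the exception was F2 at 142 CPM. Over all libraries the log2 fold change was 0.95 ± 0.58 (adjusted p = 0.584), without F2 it was 1.69 (adjusted p = 0.265), and inside the window it was 2.42 ± 0.26 (adjusted p = 0.00342). F2 also held the highest Cd274 and Gbp2 of its group. Without it the list again had no call in edgeR, 1 member at an unadjusted p under 0.05 and a median of 0.10, and Gbp2 had 0.20 (adjusted p = 0.903). Inside the window the IFN-gamma list had a median of 0.38, and Cxcl9 was its only call. Of its 25 members tested, 10 had an unadjusted p under 0.05 there, all higher, where 655 of 12661 genes were higher at that level.

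Genes typical of monocyte-derived cells had no call either, with 20 tested by edgeR and DESeq2, 6 at an unadjusted p under 0.05 in edgeR and a median of -0.51. With total T cells 19 of these 20 were called higher over no T (median 1.90), where 11.7% of all genes were. Ly6c2, the Ly6C antigen of inflammatory monocytes, varied most among the IL6Ra/IL21R ko T libraries: F2, M2 and F1 had 82.2, 56.2 and 13.7 CPM, and F3, M1, M3 and M4 had 1.08 to 2.92 CPM. The 6 no T libraries had 23.9 to 68.1 CPM, so 5 libraries of the IL6Ra/IL21R ko T group lay below them all. The log2 fold change was -0.88 ± 0.78 (adjusted p = 0.732). Fn1, fibronectin, had 11.1, 15.5 and 88.7 CPM against 27.3, 65.05 and 105 CPM and -1.39 ± 0.51 (adjusted p = 0.278), with M2 and M4 high among the first group. F10, coagulation factor X, had -2.34 ± 0.88 (adjusted p = 0.29), Itgal, the LFA-1 integrin chain, -0.51 ± 0.29 (adjusted p = 0.553), and Ccr2, the receptor that brings monocytes into tissue, 0.06 ± 0.20 (adjusted p = 0.944).

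The border macrophage list had all 24 members above 0 over all libraries, none called by edgeR or DESeq2, 1 at an unadjusted p under 0.05, and a median of 0.25; inside the window 8 of 24 were above 0 and the median was -0.06. Total T over no T had 18 of the 24 called lower, against 9.39% of all genes, with a median of -1.25. Mrc1 had 2525, 3526 and 4374 CPM in the IL6Ra/IL21R ko T group and 2312, 2862 and 3512 CPM in the no T group, overlapping, with 0.28 ± 0.25 on the log2 scale (adjusted p = 0.737). Cbr2, a carbonyl reductase typical of these cells, had 0.16 ± 0.25 (adjusted p = 0.869), and Lyve1 had 0.23 ± 0.44 (adjusted p = 0.895), with M4 highest of all 13 libraries at 529 CPM. Of 13 microglia-enriched genes none was called by either tool, 6 had an unadjusted p under 0.05, and the median was 0.32. Cx3cr1, the fractalkine receptor, had 779, 1445 and 1826 CPM against 642, 1018 and 1359.6 CPM and 0.60 ± 0.22 (adjusted p = 0.267).

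Siglech and Slc40a1, a sialic acid-binding lectin and the iron exporter ferroportin, also split the IL6Ra/IL21R ko T group. F3, M1 and M3, which were low in Ly6c2, were at the top. M4, also low in Ly6c2, was among the lower libraries for both genes. Siglech had 112, 98.3 and 92.3 CPM in F3, M1 and M3, above all no T libraries (47.5 to 71.5 CPM), and 23.3 to 54.7 CPM in the other 4. Slc40a1 had 341, 463 and 451 CPM in the same 3 libraries and 47.2 to 199 CPM in the others, against 127 to 247 CPM in the no T group. Neither was called (adjusted p = 0.848 and 0.679). For both genes the IL6Ra/IL21R ko T libraries ran from below the lowest to above the highest no T library.

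Inside the ribosomal window, some of the 37 genes called lower in the IL6Ra/IL21R ko T group are described here because they were high in the no T libraries F3 and F4, and were singled out after their values had been seen. Of the lists, IL-17 and NF-kB targets had 1 of 21 and macrophage cytokines and growth factors 2 of 20 called there, all lower, with medians of -0.44 and -0.13, where 0.292% of all genes were called lower. Il1a, the alarm cytokine IL-1 alpha, had 31.9 to 41.3 CPM in the 6 IL6Ra/IL21R ko T libraries inside the window and 104 and 137 CPM in F3 and F4. The 4 no T libraries above the window had 30.4 to 64.5 CPM, so the difference inside the window (-1.68 ± 0.18, adjusted p = 0.00342) was not called over all libraries (-0.86 ± 0.29, adjusted p = 0.199). Il1a was also 1 of the 9 genes called with the ribosomal set as a term (-1.48, adjusted p = 0.0289). Il1rn, the antagonist of the IL-1 receptor, had 57.97 to 141 CPM in the 6 IL6Ra/IL21R ko T libraries, 264 and 245 CPM in F3 and F4 and 53.2 to 162 CPM in the other no T libraries (inside the window -1.58 ± 0.27, adjusted p = 0.0387).

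Plaur, the urokinase receptor, and Cxcl2, a chemokine that attracts neutrophils, had the same form. Plaur had 15.04 to 38.7 CPM in the IL6Ra/IL21R ko T libraries inside the window and 82.5 and 98.98 CPM in F3 and F4 (-2.08 ± 0.30, adjusted p = 0.0199). Cxcl2 had 747 to 956 CPM against 1348 and 1565 CPM (-0.86 ± 0.14, adjusted p = 0.0256). Over all libraries Plaur had -1.27 ± 0.38 (adjusted p = 0.122) and Cxcl2 -0.25 ± 0.18 (adjusted p = 0.656). The same direction was called inside the window for Dusp5, a phosphatase of nuclear ERK (-1.58), Ifrd1 (-1.25), Nr4a3, an orphan nuclear receptor induced by activation (-1.77), Maff, a small MAF factor (-1.14), Bach1, the haem-responsive repressor (-1.09), Sbno2, a STAT3 target that acts as a corepressor (-1.67), and Mt1, a metallothionein (-0.97).

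The promoters of Il1a, Il1rn, Plaur and Cxcl2 are shown because these genes moved together inside the window. Each is the 250 bases before the start, on the gene's own strand, from RefSeq's GRCm38.p6 table. In the first 3, capitals mark matches to TGANTCA, the AP-1 element that FOS and JUN proteins bind. In Cxcl2 they mark GGAATTTCC, an NF-kB element. The element to mark was chosen for each gene, so the capitals show no element common to these promoters. Both strands were searched.
Il1a: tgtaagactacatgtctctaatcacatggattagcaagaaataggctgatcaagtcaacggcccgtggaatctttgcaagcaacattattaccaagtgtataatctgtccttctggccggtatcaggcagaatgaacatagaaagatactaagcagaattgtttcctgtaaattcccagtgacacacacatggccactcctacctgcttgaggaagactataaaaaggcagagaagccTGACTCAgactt
Il1rn: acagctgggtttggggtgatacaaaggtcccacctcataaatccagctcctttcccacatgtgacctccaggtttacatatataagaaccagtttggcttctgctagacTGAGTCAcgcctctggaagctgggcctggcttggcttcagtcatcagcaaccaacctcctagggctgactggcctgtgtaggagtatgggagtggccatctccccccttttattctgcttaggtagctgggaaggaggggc
Plaur: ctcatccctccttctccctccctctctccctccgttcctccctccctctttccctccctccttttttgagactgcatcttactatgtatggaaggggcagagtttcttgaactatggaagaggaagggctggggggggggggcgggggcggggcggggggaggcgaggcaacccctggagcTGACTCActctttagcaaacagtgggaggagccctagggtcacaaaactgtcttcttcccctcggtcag
Cxcl2: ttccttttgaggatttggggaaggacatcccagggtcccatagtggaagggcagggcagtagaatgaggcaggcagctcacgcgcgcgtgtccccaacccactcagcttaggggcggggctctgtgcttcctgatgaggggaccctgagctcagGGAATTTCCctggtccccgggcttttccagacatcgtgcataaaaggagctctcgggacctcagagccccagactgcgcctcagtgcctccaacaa
They lie at chr2:129309973-129310222, minus strand for Il1a, chr2:24336610-24336859, plus strand for Il1rn, chr7:24462233-24462482, plus strand for Plaur and chr5:90903649-90903898, plus strand for Cxcl2. For Il1rn, 3 starts are listed, and the 1 shown is the only one with a match. The AP-1 match lies 12, 141 and 69 bases before the start in Il1a, Il1rn and Plaur. Of all 32851 promoters, 6.75% held TGANTCA and 0.286% held GGAATTTCC. Of the 37 genes called lower inside the window, 27 had a promoter in the table and 5 of these held TGANTCA (18.5%), where 5.50% of the genes tested did. GGAATTTCC was held by 1 of the 27 (3.70%, against 0.428%). Of 2 further elements searched, TTCNNNGAA was held by 3 (11.1%, against 7.11%) and CACGTG by 3 (11.1%, against 9.83%). The promoters were looked at after the genes were known, and no test was made.

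Among genes higher inside the window, Cxcl13, which attracts B cells, had 5.57 to 21.96 CPM in the 6 IL6Ra/IL21R ko T libraries and 1.39 and 1.21 CPM in F3 and F4 (3.60 ± 0.64, adjusted p = 0.0421). Over all libraries it had 1.64 ± 0.59 (adjusted p = 0.262). The no T library M2 had 16.8 CPM of it and the other 5 had at most 4.42. The others were Btg2 and Rhob, early-response genes (0.82 and 0.81), Kcnj10, a potassium channel (1.62), and Rnf139, a ubiquitin ligase of the endoplasmic reticulum (1.16). Of 25 immediate-early and dissociation genes, 2 were called higher inside the window, Btg2 and Rhob, where 0.0474% of all genes were. There 12 of the 25 had an unadjusted p under 0.05 in edgeR, 10 higher and 2 lower, with a median of 0.28. Of all 12661 genes, 655 were higher and 734 lower at that level. Over all libraries neither edgeR nor DESeq2 called any of the 25, and 6 had an unadjusted p under 0.05.

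Some markers of vessel cells were lower inside the window. Of 10 endothelial markers, 3 were called lower there (Pecam1, Esam and Vwf), none higher and 7 not called, with a median of -2.51, where 0.292% of all genes were called lower. Pecam1, the endothelial adhesion molecule CD31, had 1.62 to 13.7 CPM in the 6 IL6Ra/IL21R ko T libraries and 18.4 and 39.6 CPM in F3 and F4 (-3.03 ± 0.55, adjusted p = 0.0459). The summed endothelial markers had 48.5 to 82.6 CPM in those 6, 167 and 275 CPM in F3 and F4, 39.7 to 139 CPM in the other no T libraries and 274 CPM in M4. Ptprb and Podxl, further genes of endothelium, were called lower as well (-4.54 and -4.58). Of 7 pericyte and smooth muscle markers none was called inside the window by edgeR and 1 by DESeq2, 3 had an unadjusted p under 0.05 in edgeR, all lower, and the median was -1.13; they summed to 38.0 to 94.97 CPM in the 6 IL6Ra/IL21R ko T libraries and to 91.5 and 412 CPM in F3 and F4. The endothelial sum, and in F4 the pericyte sum, is high in the same 2 libraries as Il1a, Il1rn, Plaur and Cxcl2, and their part in those differences was not tested.

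**Figure D4:**
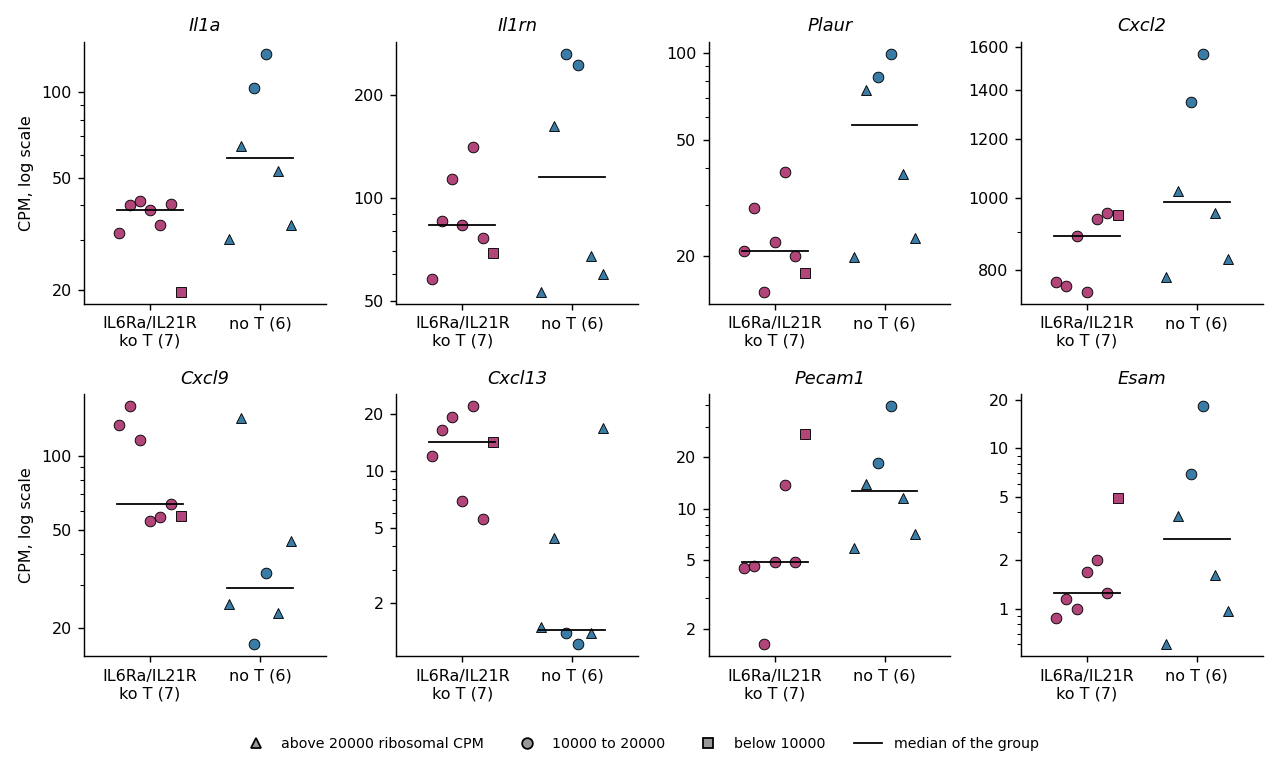
CPM on a log scale of 8 genes called inside the ribosomal window, in each library of the IL6Ra/IL21R ko T group (left) and the no T group (right), with circles for libraries inside the window. For Il1a, Il1rn, Plaur, Cxcl2, Pecam1 and Esam the 2 no T circles lie above the other circles, and for Cxcl9 and Cxcl13 they lie below them.

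Other gene groups showed few calls. Of 32 pathway lists, 27 had no member called over all libraries, and the list medians ran from -0.51 (monocyte-derived cell genes) to 0.32 (microglia-enriched genes). DESeq2 called at least 1 member in 6 of the 32 lists, the same 5 and the extracellular matrix enzymes. The 5 lists with a call had 1 each: Lcn2 among 21 IL-17 and NF-kB targets (-4.77 ± 0.97, adjusted p = 0.0104), Ftl1 among 14 iron and haem genes, Stmn1, a microtubule regulator, among 26 cell cycle genes (-1.54 ± 0.36, adjusted p = 0.0254), Gapdh among 19 glycolysis and hypoxia genes, and Lamp2 among 20 lysosomal genes. Lamp2 was the one that was higher. Lcn2, named above with the neutrophil transcripts, had 927, 236, 133 and 113 counts in the no T libraries M1, F1, M2 and F2. It had 2 and 0 counts in F3 and F4, and 59 over the IL6Ra/IL21R ko T group. Its counts among these 13 libraries thus lay mainly in the libraries with neutrophil transcripts, and its adjusted p describes these libraries only. Inside the window Lcn2 had 1.36 on the log2 scale and was not called. Without 1 library, the call of Stmn1 was lost in 5 of the 13 fits, that of Lamp2 in 11 and that of Lcn2 in 1, among them the fit without the no T library M1 (adjusted p = 0.156, 0.147 and 0.118), while Ftl1 and Gapdh kept theirs. Without the no T library F2 neither the cell cycle nor the lysosomal list had a call (Stmn1 adjusted p = 0.0869, Lamp2 0.143). Stmn1 had 2.16, 4.80 and 7.02 CPM in the IL6Ra/IL21R ko T group and 7.47, 13.2 and 22.2 CPM in the no T group without overlap, and Mki67, the proliferation marker, had -0.86 ± 0.52 (adjusted p = 0.583). Over all libraries 4 of the 26 cell cycle genes were above 0, with a median of -0.34. Of the 26, 6 had an unadjusted p under 0.05 in edgeR, where 1364 of all 12661 genes did, and DESeq2 called 3 lower. Without M4 edgeR called 2 lower. Inside the window the median was also -0.34, with none called and 3 at an unadjusted p under 0.05.

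The receptors through which T-cell cytokines act had no call among 19 tested by edgeR or DESeq2, with 2 at an unadjusted p under 0.05 and a median of 0.02; Il21r had 0.14 ± 0.12 (adjusted p = 0.713) and Il6ra -0.15 ± 0.10 (adjusted p = 0.603). None of 27 type I interferon genes was called by either, with 1 at an unadjusted p under 0.05, a median of -0.21 and all 27 intervals within 1 log2 unit of 0. Complement (15 tested, median 0.20), Fc receptors (6 tested, 0.17), chemokines (23 tested, 0.29) and cholesterol synthesis (20 tested, -0.07) had none called by either, with 0, 0, 1 and 0 at an unadjusted p under 0.05. The difference between the groups was also set against sex: in a model with their product, edgeR called 0 of 12661 genes, with 726 at an unadjusted p under 0.05 and a smallest adjusted p of 0.805.

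**Figure D5:**
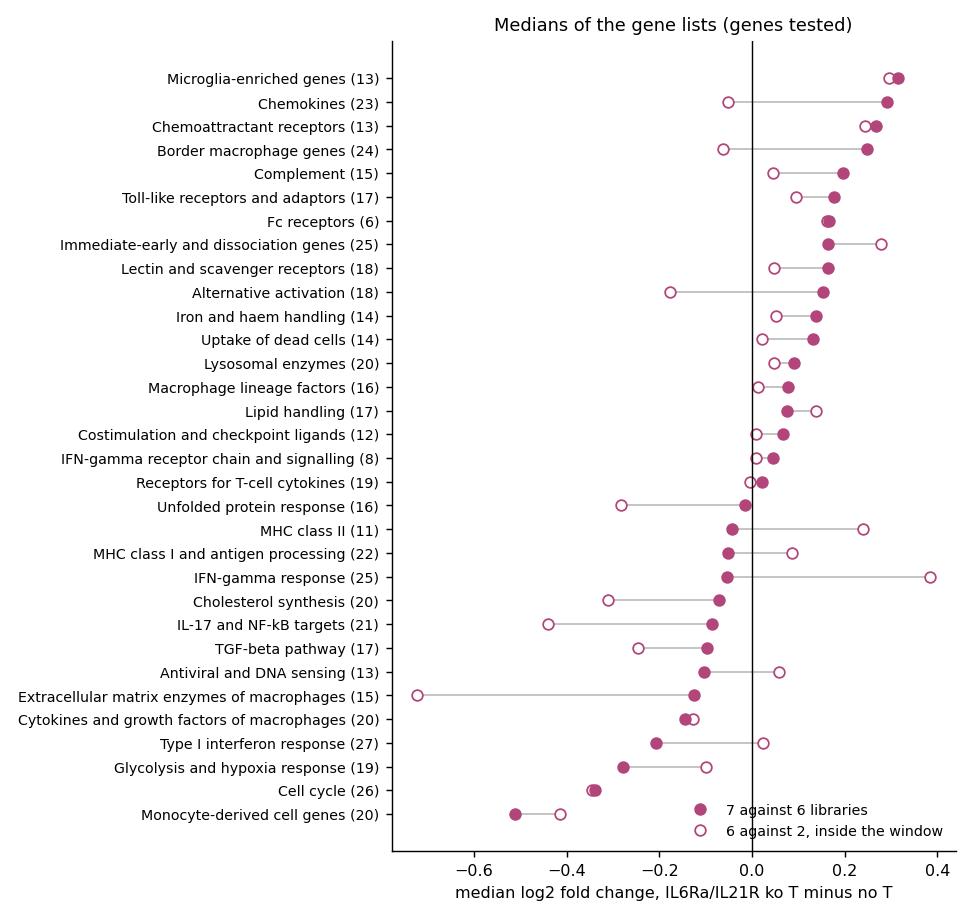
Median log2 fold change of 32 gene lists, IL6Ra/IL21R ko T minus no T, over all 13 libraries (filled) and inside the ribosomal window (open), with the number of genes tested in brackets. The filled medians lie between -0.51 and 0.32, and the open ones of the IFN-gamma and MHC class II lists lie to the right of the filled ones while that of the border macrophage list lies to the left.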

How the data were processed

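The deposited table holds whole-number counts per gene, not normalized although it is called so, for 41388 Ensembl genes (40254 with a symbol; genes without one held 0.106 to 0.133% of the counts). Per the labels' protocols, RNA of sorted dural macrophages was made into unstranded single-end libraries, and the build GRCm38, DESeq2 1.20.0, featureCounts and STAR 2.4.0j are named in the submitters' processing notes. The columns carry the group and sex but not the sample titles, so they were assigned to groups only. Here edgeR 4.0.16 in R 4.3.3 was fitted with group and sex over all 27 libraries with TMM scaling and its quasi-likelihood test, on 12661 genes whose normalized counts averaged 10 or more, with Benjamini-Hochberg adjustment at 0.05, and CPM are TMM-scaled. The test was tested on simulated data with 200 changed genes. Ribosomal CPM use plain totals. Gene positions are those of the GENCODE annotation. Standard errors are the log2 fold change over the root of F, and intervals are 95%. Alternatives were RLE scaling, DESeq2 1.42.0, no filter, fewer libraries and other terms. Pairs of libraries of a group differed beyond sampling noise, with a chi-square per degree of freedom of 9.53 to 125. Genes were named by the rule given above, by up to 4 members a list, by a group of genes known from earlier results, or after their values were seen where said. The members, lists and window were chosen with earlier results of these data known.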

Additional observations from a re-analysis of the deposited data

Results flagged for a closer look

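Within a group, 24 of 214 sets of values (11.2%) held a library farther from the nearest other one than Dixon's 95% limit allows on log2(CPM + 0.5), where chance flags about 1 in 20. That rate does not hold where all other libraries are at 0, since any count is then flagged. Such flags are Atp6v1c2 (4 counts) and Foxi1 (2 counts) in the IL6Ra/IL21R ko T library M2. Ltf, Insrr and S100a9 below also rest on few counts (6, 4 and 17). Of the 24, 9 lay in the IL6Ra/IL21R ko T library M4, the one with the lowest ribosomal sum. It was lowest of its group in Btg2 (1530 CPM), Ccr2 (227 CPM), H2-DMa (250 CPM), Il1a (19.7 CPM), Lamp2 (778 CPM), Ppia (25.4 CPM) and Ptp4a1 (20 CPM), and highest in Ltf (0.464 CPM) and Vwf (163 CPM). The IL6Ra/IL21R ko T library M2 was highest of its group in Atp6v1c2 (0.308 CPM), Dusp5 (64.0 CPM), Foxi1 (0.154 CPM), Lyz2 (11800 CPM), Nr4a3 (80.9 CPM) and S100a9 (1.31 CPM). In the same group M3 was lowest in Atad2 (11.3 CPM), F3 lowest in Elp2 (46.1 CPM) and M1 highest in Insrr (0.261 CPM). Among the no T libraries, F2 was highest in Cd274 (55.1 CPM), Nos2 (7.64 CPM) and Tap1 (276 CPM), M2 lowest in Atad2 (14.9 CPM) and Cd151 (46.6 CPM), and F4 lowest in Ubxn8 (11.8 CPM).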

How the results depend on the processing

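The count of 146 genes called (15 higher, 131 lower) became 256 (30 and 226) with DESeq2, 564 (117 and 447) without the filter, 9 (0 and 9) with the ribosomal set as a term, 43 (6 and 37) inside the window, 302 (30 and 272) without M4, and 11 (0 and 11) in females only. It became 33 (1 and 32) without the no T libraries F1 and M1, an alternative chosen after seeing the data, as were those of the window fit. With the 13 libraries alone 3 genes were called higher. Leaving out 1 library gave 72 to 302 genes called, 5 to 30 higher and 67 to 272 lower, and a ribosomal difference of -13473 to -9835 CPM. The 43 calls inside the window became 250 with DESeq2 and 103 in females only, and 0 to 160 without 1 library. Of the 24 genes named by the rule, 24 stayed called with DESeq2, 2 inside the window and 0 with the set as a term. All kept their sign in every alternative. The rule itself asked for the same sign inside the window and without M4, so there the agreement was fixed by the selection. The other fits share most of their libraries with the main one. Signs turned inside the window, with none called there, for Lcn2 (1.36), Nkg7 (2.56), Mpo (5.29), Prtn3 (0.49), Insrr (1.70), Rps6 (1.25), Gapdh (0.0087) and Ppia (0.086), and with the set as a term for Rps6 (1.28), Gapdh (0.23), Ppia (0.069) and Fau (0.0063). The cause was not tested. No paired analysis was possible because the columns carry no replicate numbers of the sample titles. The window fit has 2 no T libraries, both female and the shallowest of the 13, which limits its precision.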
